A study of Mus musculus with 9 samples.

Results

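The genes described here are 36 named neighbours at the distal end of mouse chromosome 15, running in chromosome order from Letmd1 to Ppp1r1a. They were chosen by their measured log2 expression, which was low in epiblast stem cells (EpiSCs) cultured in CHIR/XAV, against a culture the list does not name, so the direction of that difference is a property of the list and was not tested. Of the 36, 34 had a microarray probe set annotated to that gene alone, among 19938 genes measured. Hnrnpa1, the heterogeneous nuclear ribonucleoprotein A1 that takes part in splicing, had 5 probe sets, each shared with near-identical copies. Soat2, a sterol acyltransferase of cholesterol ester synthesis, had no probe set listed. The expression of neither was analysed here, but Hnrnpa1 is among the genes whose promoters are described below.

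Total RNA was hybridised to 9 arrays, 3 for each of 3 mouse cultures. The first was embryonic stem cells (ESCs) of strain 129 kept in 2i, the pair of kinase inhibitors CHIR99021 and PD0325901. The other two were EpiSCs of strain CD1, kept in CHIR99021 with XAV939 (CHIR/XAV) or in FGF2 with activin (FGF2/activin). The labels give the medium as GMEM with 10% serum for all samples and list the agents together, at 3 µM CHIR99021, 1 µM PD0325901, 2 µM XAV939, 10 ng/ml FGF2 and 10 ng/ml activin. They give the same tissue term, mouse embryonic stem cell, for all 9 samples, and name no cell line, passage or clone. Strain changes with cell type between ESCs and either EpiSC culture, so those factors cannot be told apart, whereas both EpiSC cultures are CD1. Nothing in the labels says whether replicate arrays were grown separately; the p-values therefore cover array-to-array spread only, possibly technical.

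ESCs in 2i are held in a naive state and EpiSCs in a primed state that resembles the later epiblast. CHIR99021 inhibits GSK3 and so stabilises beta-catenin, PD0325901 blocks MEK, and XAV939 inhibits tankyrase, which stabilises axin and keeps beta-catenin in the cytoplasm. The listed neighbours have no common pathway: they hold housekeeping proteins of RNA handling, translation, folding and membrane traffic, several transcription factors, the cohesin-cleaving protease separase, and tissue-restricted signalling and blood-cell genes, and they surround the type II keratin cluster and the Hoxc cluster.

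Values are log2 expression. The cultures separated as labelled by their markers. Averaged over 6 markers of naive ESCs, the log2 level was 9.50 to 9.57 on the ESC arrays, 5.37 to 5.43 on the CHIR/XAV arrays and 5.66 to 5.71 on the FGF2/activin arrays. For 5 primed epiblast markers it was 6.84 to 6.87, 9.46 to 9.50 and 9.38 to 9.49, and for 6 markers of pluripotent cells in general it was 10.69 to 10.86 on all 9 arrays. Lists for 6 other cell types (fibroblasts or feeders, extraembryonic endoderm, mesoderm, neural cells, trophoblast and blood cells) averaged 5.10 to 6.15 on any array. Those averages hide single brighter genes that differed between cultures. In ESC, CHIR/XAV and FGF2/activin, Tfap2c averaged 9.05, 6.07 and 7.26, Eomes 6.40, 7.43 and 8.72, and Thy1 5.445, 7.21 and 5.70. Correlations between arrays over all genes were 0.9959 to 0.998 within groups, 0.9715 to 0.975 between the EpiSC cultures, and 0.933 to 0.9473 between ESCs and either EpiSC culture.

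Sequences upstream of the listed start sites were read to describe the promoters of these neighbours. The list was chosen by expression, so its promoters may differ from others through expression level. RefSeq promoter entries (GRCm38.p6) matched 31 of the 36 genes; the 250 bases before the first listed start were searched on both strands. The GC box (GGGCGG or its complement), the letters that Sp1 and its relatives bind, occurred in 22 of 31 (71.0%), against 33.0% of all 27025 promoters and 46.0% of the 15614 promoters of genes on the array. CCAAT occurred in 14 (45.2%, against 34.5% and 35.6%), TATAAA in 1 (3.23%, against 13.0% and 11.2%, the gene being Igfbp6), and the ETS site CCGGAAG in 3 (9.68%, against 7.07% and 9.64%; Aaas, Letmd1 and Pcbp2). The cAMP response element TGACGTCA, found in 1.60% of all promoters, and the TCF/LEF letters CTTTGAT, found in 3.26%, were in none of the 31. In the 31 promoters, 1 pair of matches to different motifs overlapped. Median GC content was 62.8%, against 52.0% for all promoters and 56.4% for genes on the array, and the median observed-to-expected CpG ratio was 0.835, against 0.379 and 0.59. Of the measured listed genes, 29 of 34 had a mean log2 level above 5.276 over the 9 arrays, against 11963 of all 19938 genes. The promoters were not compared with those of equally bright genes. Whether the gaps in GC box, GC content and CpG ratio follow brightness was not tested, so nothing is read from them. A match is a description of the letters and no evidence of binding.

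The 5 upstream sequences below belong to members whose 3 CHIR/XAV values lay below the other 6, and their windows touch no annotated gene. They show the range from a promoter with 4 GC boxes (Sp1) to one with none (Pfdn5). Capitals mark GC boxes in either orientation, and each is printed 5′ to 3′ on the strand of its gene. They lie at chr15:102073523-102073772 (Eif4b, plus strand), chr15:102406066-102406315 (Sp1, plus), chr15:100615412-100615661 (Dazap2, plus), chr15:103272638-103272887 (Copz1, plus) and chr15:102325866-102326115 (Pfdn5, plus).
Eif4b: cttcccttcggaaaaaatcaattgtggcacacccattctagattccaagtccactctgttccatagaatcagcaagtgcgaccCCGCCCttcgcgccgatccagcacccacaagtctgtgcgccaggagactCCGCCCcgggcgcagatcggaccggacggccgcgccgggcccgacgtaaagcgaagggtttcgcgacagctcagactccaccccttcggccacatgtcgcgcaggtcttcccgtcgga
Sp1: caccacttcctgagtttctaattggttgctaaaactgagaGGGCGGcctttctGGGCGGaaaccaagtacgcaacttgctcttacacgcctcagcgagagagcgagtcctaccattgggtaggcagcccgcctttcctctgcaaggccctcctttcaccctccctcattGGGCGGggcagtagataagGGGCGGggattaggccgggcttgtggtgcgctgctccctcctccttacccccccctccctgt
Dazap2: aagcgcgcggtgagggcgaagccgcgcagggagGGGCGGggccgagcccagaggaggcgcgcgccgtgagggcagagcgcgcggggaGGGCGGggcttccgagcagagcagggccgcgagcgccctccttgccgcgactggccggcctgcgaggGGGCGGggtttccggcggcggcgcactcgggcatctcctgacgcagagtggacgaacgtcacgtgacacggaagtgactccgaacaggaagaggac
Copz1: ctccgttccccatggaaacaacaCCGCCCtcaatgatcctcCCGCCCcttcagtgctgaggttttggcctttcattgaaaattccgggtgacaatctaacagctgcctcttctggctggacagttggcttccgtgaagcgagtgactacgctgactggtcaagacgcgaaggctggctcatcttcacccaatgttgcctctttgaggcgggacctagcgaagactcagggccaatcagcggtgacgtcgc
Pfdn5: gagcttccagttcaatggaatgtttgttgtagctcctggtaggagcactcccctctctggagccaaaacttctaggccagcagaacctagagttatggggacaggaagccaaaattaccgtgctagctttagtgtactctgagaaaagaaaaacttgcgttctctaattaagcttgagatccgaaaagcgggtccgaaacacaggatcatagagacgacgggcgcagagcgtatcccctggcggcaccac

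For 23 of the 34 measured genes (67.6%), all 3 CHIR/XAV values were below all 3 ESC values and all 3 FGF2/activin values; the share over all genes was 8.89%. Since low CHIR/XAV values chose the genes, nothing is read from that gap. For the other 11, CHIR/XAV was not below both cultures on all arrays. The difference between CHIR/XAV EpiSCs and ESCs was below 0 for 29 genes (85.3%, against 54.9% of all genes), and the arrays did not overlap, CHIR/XAV being lower, for 26 (76.5%, against 26.1% of all genes); they were higher without overlap for 4 (11.8%, against 27.1%). Against FGF2/activin EpiSCs the difference was below 0 for 28 (82.4%, against 41.5%), with 26 lower without overlap (76.5%, against 24.6%) and 3 higher (8.82%, against 27.4%). The median over the 34 genes was -0.59 against ESCs and -0.63 against FGF2/activin EpiSCs, where the medians of all genes were -0.03 and 0.05. These comparisons share the CHIR/XAV arrays. In these bulk samples a smaller share of cells expressing a gene and less RNA per cell cannot be told apart.

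The 3 CHIR/XAV arrays gave like values. Their medians over the 34 genes, taken against the ESC means, were -0.60, -0.59 and -0.56, and against the FGF2/activin means -0.58, -0.63 and -0.69. The median level of the 34 genes was 6.59, 6.55 and 6.62 on the CHIR/XAV arrays, against 7.74, 7.66 and 7.61 on the ESC arrays and 7.41, 7.40 and 7.40 on the FGF2/activin arrays.

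**Figure D1:**
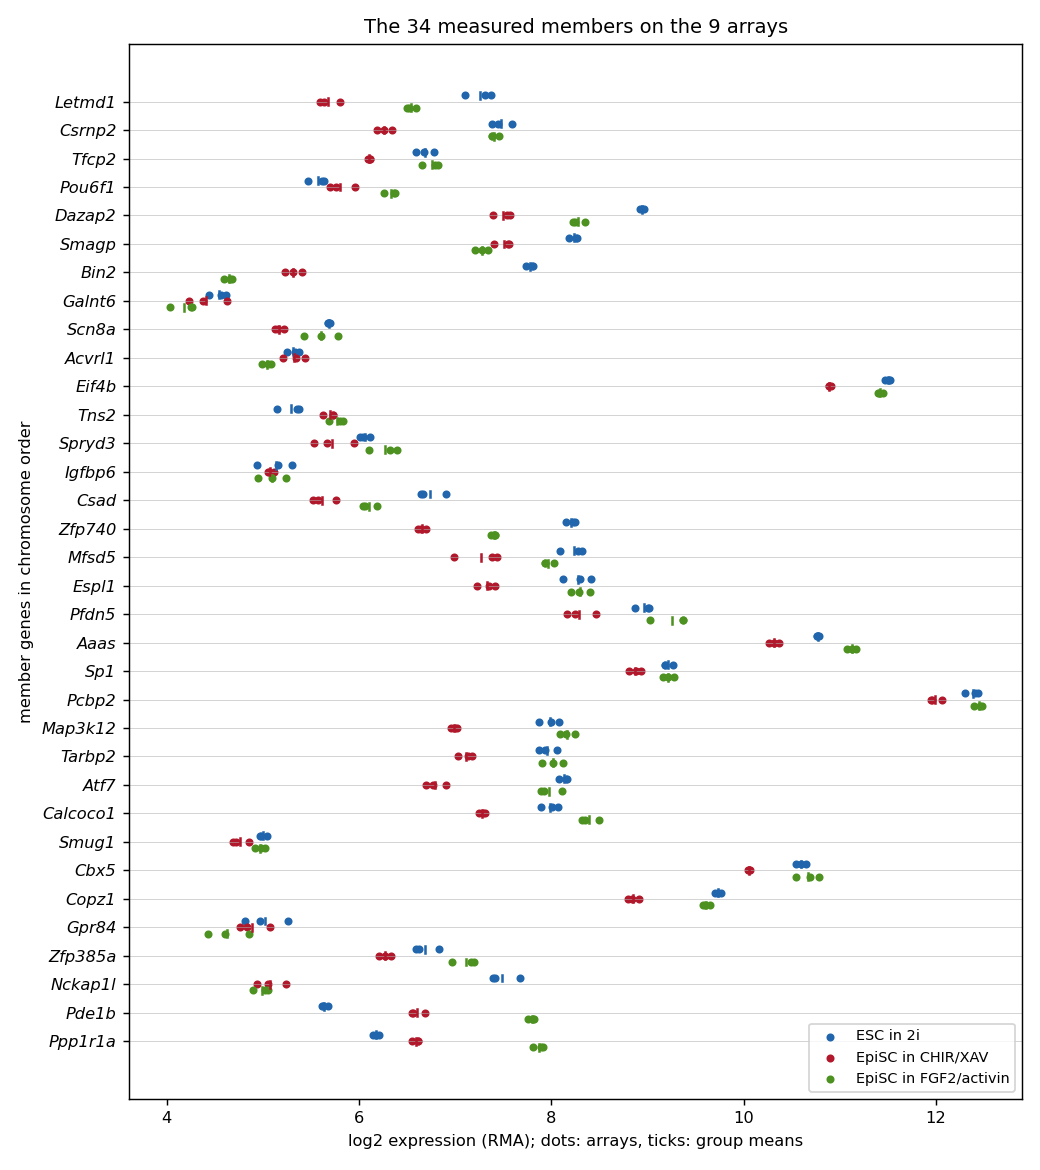
Log2 expression (horizontal axis) of the 34 measured genes in chromosome order from Letmd1 at the top to Ppp1r1a at the bottom; each dot is 1 of 3 arrays of a culture, and each tick is a group mean. In 23 rows the 3 CHIR/XAV dots lie left of the other 6; Bin2 and Nckap1l stand high in ESCs alone, and Pde1b and Ppp1r1a are highest in FGF2/activin.

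The 5 measured genes of RNA handling, translation and protein folding were lower in CHIR/XAV than on the other 6 arrays, with medians of -0.68 against ESCs and -0.77 against FGF2/activin EpiSCs. Dazap2, a small proline-rich protein that binds the DAZ family of RNA-binding proteins, read 8.97, 8.92 and 8.94 on the ESC arrays, 7.54, 7.57 and 7.39 on the CHIR/XAV arrays and 8.23, 8.35 and 8.24 on the FGF2/activin arrays. The 3 groups did not overlap. CHIR/XAV differed from ESCs by -1.44, the lowest value of these 5 genes, and from FGF2/activin EpiSCs by -0.77 (SE 0.07). Tarbp2, the double-stranded RNA-binding partner of Dicer, read 7.94, 8.06 and 7.87 on the ESC arrays, 7.13, 7.03 and 7.18 on the CHIR/XAV arrays and 8.02, 8.12 and 7.91 on the FGF2/activin arrays. Its CHIR/XAV values were the low ones, while ESC and FGF2/activin arrays overlapped. A dimmer probe set of Tarbp2 gave -0.58 and -0.51 where the brighter one gave -0.84 and -0.90.

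Eif4b, a cofactor of the translation-initiation helicase eIF4A, read 11.51, 11.52 and 11.47 on the ESC arrays, 10.88, 10.88 and 10.91 on the CHIR/XAV arrays and 11.40, 11.45 and 11.39 on the FGF2/activin arrays. Its CHIR/XAV arrays were nearly equal to each other (SD 0.01, n = 3) and differed by -0.61 from ESCs and -0.52 from FGF2/activin EpiSCs. Pfdn5, a subunit of the prefoldin chaperone that hands unfolded actin and tubulin to the cytosolic chaperonin, read 9.01, 8.87 and 9.02 on the ESC arrays, 8.24, 8.16 and 8.46 on the CHIR/XAV arrays and 9.37, 9.37 and 9.03 on the FGF2/activin arrays. The FGF2/activin arrays were higher than the ESC arrays too. Pcbp2, which binds C-rich stretches of RNA, had the smallest differences of this role, -0.40 and -0.46 (SE 0.07). Its arrays read 12.44, 12.41 and 12.30 on the ESC arrays, 12.06, 11.95 and 11.96 on the CHIR/XAV arrays and 12.46, 12.48 and 12.40 on the FGF2/activin arrays, without overlap of CHIR/XAV with the others.

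The 3 genes of cell division, the nuclear pore and DNA repair were likewise lowest in CHIR/XAV. Espl1, separase, the protease that cuts cohesin at anaphase, read 8.41, 8.30 and 8.12 on the ESC arrays, 7.22, 7.42 and 7.36 on the CHIR/XAV arrays and 8.28, 8.40 and 8.20 on the FGF2/activin arrays. ESC and FGF2/activin arrays overlapped, and CHIR/XAV lay -0.94 and -0.96 from them (SE 0.09). Aaas, the nucleoporin ALADIN, read 10.78, 10.77 and 10.76 on the ESC arrays, 10.37, 10.32 and 10.27 on the CHIR/XAV arrays and 11.13, 11.16 and 11.08 on the FGF2/activin arrays, so that CHIR/XAV was lowest and FGF2/activin highest. Smug1, a DNA glycosylase that removes uracil, was among the dimmest 40% of genes (mean of 5.276 or less over 9 arrays) and its group means were 4.996 ± 0.04 in ESC, 4.75 ± 0.09 in CHIR/XAV and 4.97 ± 0.05 in FGF2/activin (SD, n = 3); its CHIR/XAV values still lay below the other 6.

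Of the 9 transcription factors and nuclear proteins, 8 had CHIR/XAV values below the other 6 arrays, with medians over the 9 of -0.58 and -0.75. Zfp740, a zinc-finger protein, read 8.22, 8.25 and 8.15 on the ESC arrays, 6.64, 6.70 and 6.61 on the CHIR/XAV arrays and 7.38, 7.42 and 7.42 on the FGF2/activin arrays. Its groups stood in 3 separate steps, with CHIR/XAV -1.55 from ESCs and -0.75 from FGF2/activin EpiSCs (SE 0.06). Atf7, a bZIP factor of the ATF2 family, read 8.15, 8.16 and 8.07 on the ESC arrays, 6.69, 6.77 and 6.90 on the CHIR/XAV arrays and 8.11, 7.89 and 7.92 on the FGF2/activin arrays. ESC and FGF2/activin arrays overlapped, and the other Atf7 probe set gave similar differences, -1.20 and -0.97 beside -1.34 and -1.19. Csrnp2, a cysteine- and serine-rich nuclear protein, read 7.45, 7.59 and 7.38 on the ESC arrays, 6.35, 6.18 and 6.26 on the CHIR/XAV arrays and 7.45, 7.38 and 7.38 on the FGF2/activin arrays. Its differences were -1.21 and -1.14 (SE 0.07).

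Calcoco1, a coiled-coil coactivator that also acts as a receptor for selective autophagy of the endoplasmic reticulum, read 8.01, 7.89 and 8.07 on the ESC arrays, 7.25, 7.31 and 7.29 on the CHIR/XAV arrays and 8.35, 8.49 and 8.32 on the FGF2/activin arrays, the FGF2/activin arrays being highest. Cbx5, heterochromatin protein 1 alpha, which binds methylated histone H3 in silent chromatin, read 10.65, 10.55 and 10.59 on the ESC arrays, 10.04, 10.05 and 10.07 on the CHIR/XAV arrays and 10.69, 10.78 and 10.54 on the FGF2/activin arrays. Only the CHIR/XAV arrays of Cbx5 stood apart, by -0.54 and -0.62 (SE 0.07). Sp1, the general activator that binds GC boxes, had the smallest shift of the 8, -0.34 against ESCs and -0.34 against FGF2/activin EpiSCs; its arrays read 9.27, 9.19 and 9.18 on the ESC arrays, 8.80, 8.88 and 8.93 on the CHIR/XAV arrays and 9.21, 9.27 and 9.16 on the FGF2/activin arrays. Tfcp2, a factor of the CP2 family, had means of 6.68 ± 0.10 in ESC, 6.11 ± 0.01 in CHIR/XAV and 6.76 ± 0.09 in FGF2/activin (SD, n = 3), and Zfp385a, a zinc-finger partner of p53, had means of 6.68 ± 0.13 in ESC, 6.27 ± 0.06 in CHIR/XAV and 7.11 ± 0.12 in FGF2/activin (SD, n = 3). The exception was Pou6f1, a POU-domain factor, with means of 5.57 ± 0.09 in ESC, 5.80 ± 0.13 in CHIR/XAV and 6.33 ± 0.07 in FGF2/activin (SD, n = 3): its CHIR/XAV arrays lay above ESC and below FGF2/activin without overlap.

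Of the 6 genes of mitochondria, membranes and transport, 4 had CHIR/XAV values below the other 6 arrays. Letmd1, a mitochondrial membrane protein with a LETM domain and the first gene of the series, read 7.31, 7.38 and 7.10 on the ESC arrays, 5.59, 5.80 and 5.64 on the CHIR/XAV arrays and 6.52, 6.50 and 6.59 on the FGF2/activin arrays. Its difference from ESCs, -1.59 (SE 0.08), was the largest of the 23, and it also differed by -0.86 from FGF2/activin EpiSCs. Copz1, the zeta subunit of the COPI vesicle coat, read 9.77, 9.73 and 9.70 on the ESC arrays, 8.91, 8.84 and 8.79 on the CHIR/XAV arrays and 9.65, 9.60 and 9.58 on the FGF2/activin arrays. Mfsd5, a membrane transporter of molybdate, read 8.09, 8.28 and 8.32 on the ESC arrays, 7.43, 7.38 and 6.98 on the CHIR/XAV arrays and 7.93, 8.03 and 7.93 on the FGF2/activin arrays, with the widest CHIR/XAV spread of the 34 genes (SD 0.25, n = 3). Scn8a, a voltage-gated sodium channel of neurons, had means of 5.68 ± 0.02 in ESC, 5.17 ± 0.04 in CHIR/XAV and 5.61 ± 0.18 in FGF2/activin (SD, n = 3).

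Smagp, a small cell-adhesion glycoprotein, did not share that pattern: its means were 8.24 ± 0.05 in ESC, 7.50 ± 0.09 in CHIR/XAV and 7.28 ± 0.06 in FGF2/activin (SD, n = 3), with CHIR/XAV between the other groups. Galnt6, a transferase that starts mucin-type O-glycosylation, was dim (means of 4.54 ± 0.09 in ESC, 4.41 ± 0.20 in CHIR/XAV and 4.18 ± 0.13 in FGF2/activin (SD, n = 3)) and its CHIR/XAV arrays overlapped both other groups. Csad, which makes taurine from cysteine sulfinate and is the measured metabolic gene, read 6.91, 6.67 and 6.64 on the ESC arrays, 5.76, 5.52 and 5.57 on the CHIR/XAV arrays and 6.04, 6.07 and 6.19 on the FGF2/activin arrays. The 3 groups of Csad did not overlap and CHIR/XAV was lowest.

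Signalling genes were the least uniform role: 2 of 8 had CHIR/XAV values below the other 6 arrays, and the median difference from ESCs was -0.02. Map3k12, dual leucine zipper kinase, which acts upstream of JNK, read 8.08, 7.88 and 7.99 on the ESC arrays, 6.95, 7.02 and 6.995 on the CHIR/XAV arrays and 8.25, 8.15 and 8.09 on the FGF2/activin arrays, with differences of -0.99 and -1.17 (SE 0.07). Its other probe set, a dim one, gave -0.35 and -0.28. Spryd3, a SPRY-domain protein, had means of 6.06 ± 0.06 in ESC, 5.71 ± 0.21 in CHIR/XAV and 6.27 ± 0.15 in FGF2/activin (SD, n = 3) and CHIR/XAV values below both groups.

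Pde1b and Ppp1r1a, the last genes of the series, were higher in CHIR/XAV than in ESCs. Pde1b, a calmodulin-dependent phosphodiesterase of cyclic nucleotides, read 5.62, 5.62 and 5.68 on the ESC arrays, 6.56, 6.55 and 6.69 on the CHIR/XAV arrays and 7.80, 7.75 and 7.82 on the FGF2/activin arrays. Ppp1r1a, an inhibitor of protein phosphatase 1 that protein kinase A switches on, read 6.21, 6.14 and 6.18 on the ESC arrays, 6.62, 6.55 and 6.62 on the CHIR/XAV arrays and 7.80, 7.91 and 7.89 on the FGF2/activin arrays. Both stood in 3 steps from ESC through CHIR/XAV to FGF2/activin with no overlap. The CHIR/XAV differences were 0.96 and 0.42 against ESCs, and -1.20 and -1.27 against FGF2/activin EpiSCs. Tns2, a tensin that links actin to focal adhesions, had means of 5.29 ± 0.13 in ESC, 5.69 ± 0.06 in CHIR/XAV and 5.77 ± 0.08 in FGF2/activin (SD, n = 3); its CHIR/XAV arrays lay above the ESC arrays and overlapped FGF2/activin. Acvrl1 (a BMP type I receptor), Igfbp6 (an IGF-binding protein) and Gpr84 (a receptor for medium-chain fatty acids) were among the dimmest 40% of genes, with means in CHIR/XAV of 5.33, 5.08 and 4.89, and the CHIR/XAV arrays overlapped the ESC arrays for each. Against FGF2/activin EpiSCs, Acvrl1 was higher without overlap (0.28), and Igfbp6 and Gpr84 overlapped. Acvrl1 was the only 1 of the 34 genes whose CHIR/XAV mean was the highest of the 3 groups.

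Bin2 and Nckap1l, genes best known from the cytoskeleton of blood cells, were high in ESCs alone. Bin2, an N-BAR membrane-bending protein, read 7.81, 7.74 and 7.80 on the ESC arrays, 5.40, 5.32 and 5.23 on the CHIR/XAV arrays and 4.66, 4.60 and 4.68 on the FGF2/activin arrays. Nckap1l, the blood-cell subunit of the actin-regulating WAVE complex, read 7.67, 7.39 and 7.41 on the ESC arrays, 5.24, 5.05 and 4.93 on the CHIR/XAV arrays and 5.05, 4.89 and 5.02 on the FGF2/activin arrays. Against ESCs the CHIR/XAV differences were -2.47 and -2.41, but against FGF2/activin EpiSCs they were 0.67, without overlap, and 0.09, with overlap. Of 5 blood-cell markers, Ptprc, Csf1r, Itgam and Spi1 were among the dimmest 40% of genes and Cd68 was not (means of 7.04, 7.57 and 8.29 in ESC, CHIR/XAV and FGF2/activin). The list mean ran from 5.20 to 5.28 on ESC arrays, 5.50 to 5.55 on CHIR/XAV arrays and 5.33 to 5.46 on FGF2/activin arrays. Which cells the Bin2 and Nckap1l RNA came from was not tested.

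The difference of the same genes between FGF2/activin EpiSCs and ESCs is taken from 6 arrays without the CHIR/XAV values and was tested with limma over all 19938 genes. The CHIR/XAV arrays did enter the shared estimate of spread behind each SE and p-value. Of the 34, 9 were higher (26.5%; all genes 27.8%), 11 were lower (32.4%; all genes 33.5%) and 14 did not pass an adjusted p of 0.05, and the median difference was -0.03 (all genes -0.08). These shares are near those of all genes. Without overlap of the arrays, 9 were higher (26.5%; all genes 29.6%) and 12 lower (35.3%; all genes 36.9%). Among the 23 genes whose CHIR/XAV values lay below the other 6, 5 were higher (21.7%, all genes 27.8%) and 5 lower (21.7%, all genes 33.5%). The other 13 were not called (56.5%), and the arrays of the 2 groups overlapped for 11 (47.8%). Those 23 were picked by where CHIR/XAV lay relative to these same ESC and FGF2/activin values, so nothing is read from this split.

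The largest rises were those of Pde1b (2.16, SE 0.07, adjusted p = 2.01e-12) and Ppp1r1a (1.69, SE 0.06, adjusted p = 1.86e-11), for which all 3 FGF2/activin arrays lay above all 3 ESC arrays. Bin2 (-3.14, SE 0.07, adjusted p = 7.03e-14) and Nckap1l (-2.50, SE 0.10, adjusted p = 2.29e-11) fell by more than these rose, in the same limma fit. Pou6f1 (0.76), Tns2 (0.48), Zfp385a (0.43), Calcoco1 (0.40), Aaas (0.35), Pfdn5 (0.29) and Map3k12 (0.18) were the other genes that rose. Smagp (-0.96), Zfp740 (-0.80), Letmd1 (-0.72), Dazap2 (-0.67), Csad (-0.64), Gpr84 (-0.39), Galnt6 (-0.36), Acvrl1 (-0.27) and Mfsd5 (-0.27) were the other genes that fell.

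The smallest of these calls depended on single arrays. The call of Map3k12 (adjusted p = 0.0435) was lost on leaving out any of 5 arrays (ESC 2 or 3, CHIR/XAV 2, FGF2/activin 1 or 2; adjusted p of 0.0544 to 0.172), and that of Mfsd5 (0.0425) on leaving out ESC 2 or 3 or any FGF2/activin array (0.0536 to 0.133). Spryd3, not called, gained a call without CHIR/XAV 1 (0.0362) or FGF2/activin 3 (0.027). Pfdn5 (0.0241) lost its call without ESC 2, FGF2/activin 1 or FGF2/activin 2 (0.0852 to 0.0991), and Gpr84 (0.0157) without ESC 3 or FGF2/activin 2 (0.0788 to 0.0825). Scaling each array to a common median moved the split from 9 higher and 11 lower to 7 and 14, and quantile normalization moved it to 6 and 11. That scaling to a common median shifts every FGF2/activin to ESC difference by -0.075. The shares over all genes were not counted after either scaling, so these splits are not read as a result about the listed genes.

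**Figure D2:**
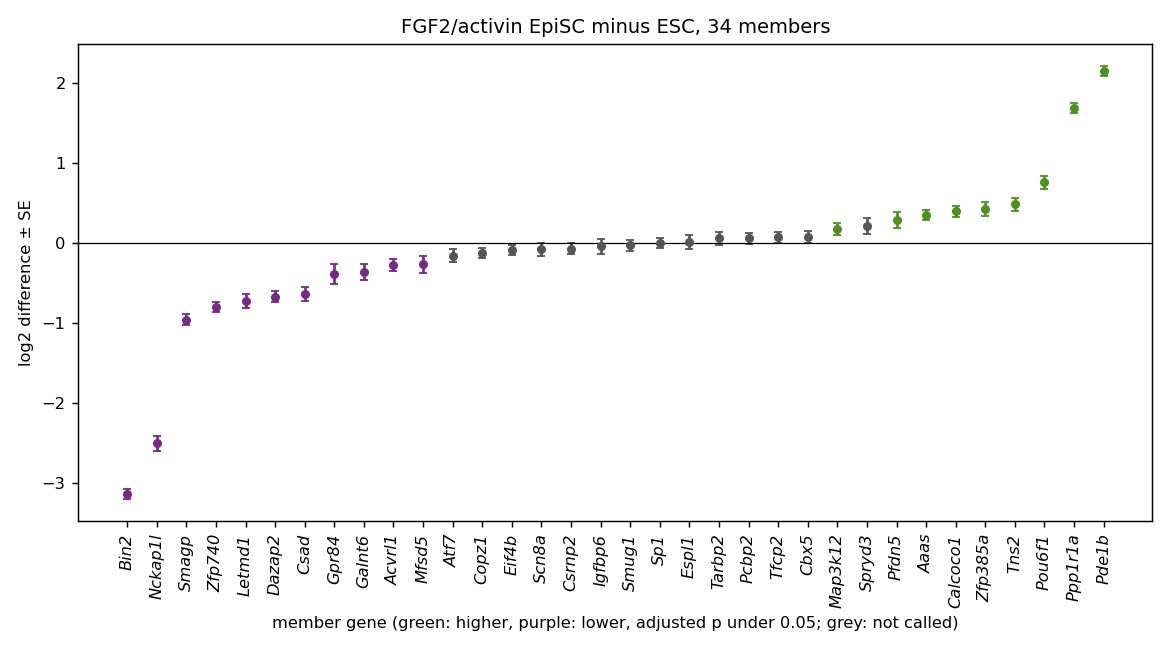
Difference in log2 expression between FGF2/activin EpiSCs and ESCs (vertical axis) for the 34 genes, ordered by size (horizontal axis); points are differences of 3-array means and bars are ± 1 SE from limma. The 9 green points passed as higher and the 11 purple ones as lower, from -3.14 for Bin2 to 2.16 for Pde1b; the grey points lie between -0.15 (Atf7) and 0.22 (Spryd3).

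The genes that flank the listed ones, and those among them that were not listed, were followed in chromosome order. Between Letmd1 and Ppp1r1a lay 63 further measured genes, of which 10 (15.9%) had CHIR/XAV values below the other 6 arrays, and their medians were -0.14 against ESCs and 0.05 against FGF2/activin EpiSCs. Most of them were dim: above the dimmest 40% were 22, and 8 of those 22 (36.4%) lay below the other 6 arrays, against 22 of the 29 listed genes (75.9%) and 13.8% of all genes with that brightness. The listed genes were chosen for low CHIR/XAV values, so nothing is read from the gap between listed and unlisted genes. The 10 unlisted genes below the other 6 arrays were Slc4a8, Acvr1b, Nr4a1, Atg101, Krt71, Myg1, Prr13, Atp5g2, Hoxc13 and Itga5.

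Of the brightest unlisted genes in between, Atp5g2, a subunit of the mitochondrial ATP synthase, had means of 11.54, 10.43 and 11.28 in ESC, CHIR/XAV and FGF2/activin, Atg101, an autophagy-initiation protein, 7.84, 7.06 and 7.77, and Itga5, the fibronectin receptor subunit, 7.51, 7.02 and 9.34. Rarg, a retinoic acid receptor, was 7.99 in ESCs and overlapped between the EpiSC cultures (7.34 and 7.31). Krt8 and Krt18, the simple-epithelial keratin pair, were higher in CHIR/XAV than in ESCs and lower than in FGF2/activin: 8.09, 9.72 and 11.88 for Krt8, and 7.45, 8.68 and 11.40 for Krt18. The 23 other keratin genes averaged 4.38 to 5.88 over the 9 arrays and the 9 Hoxc genes 4.29 to 4.77, the latter all among the dimmest 40%.

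Just before Letmd1 the direction was mixed. Slc11a2, an iron transporter, read 8.27, 8.30 and 8.23 in ESC, 6.71, 6.60 and 6.80 in CHIR/XAV and 7.96, 7.97 and 7.89 in FGF2/activin, which is -1.56 and -1.24, like the listed genes. Atf1, a CREB-family factor, differed by -0.74 and -0.29 and its CHIR/XAV arrays overlapped FGF2/activin. Mettl7a1 was higher in CHIR/XAV than in both groups (0.49 and 0.98), Tmprss12 higher than FGF2/activin (0.48), and Gm5475 overlapped both. The 73 genes from Amigo2 to Atf1 had medians of 0.53 and 0.60, and none of them had CHIR/XAV values below the other 6. The bounds of that stretch were set with earlier results of these data known, so nothing is read from its contrast with the listed genes. For the 572 genes of chromosome 15 before Amigo2 the medians were 0.12 and 0.15, with 18 (3.15%) below the other 6. The arrays measure RNA; gene copy number along the chromosome was not measured here, and its part in these values was not tested. Beyond Ppp1r1a, Glycam1 (-0.31 and -0.02) and Mucl2 (-0.10 and 0.02) were the measured genes left, both dim.

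**Figure D3:**
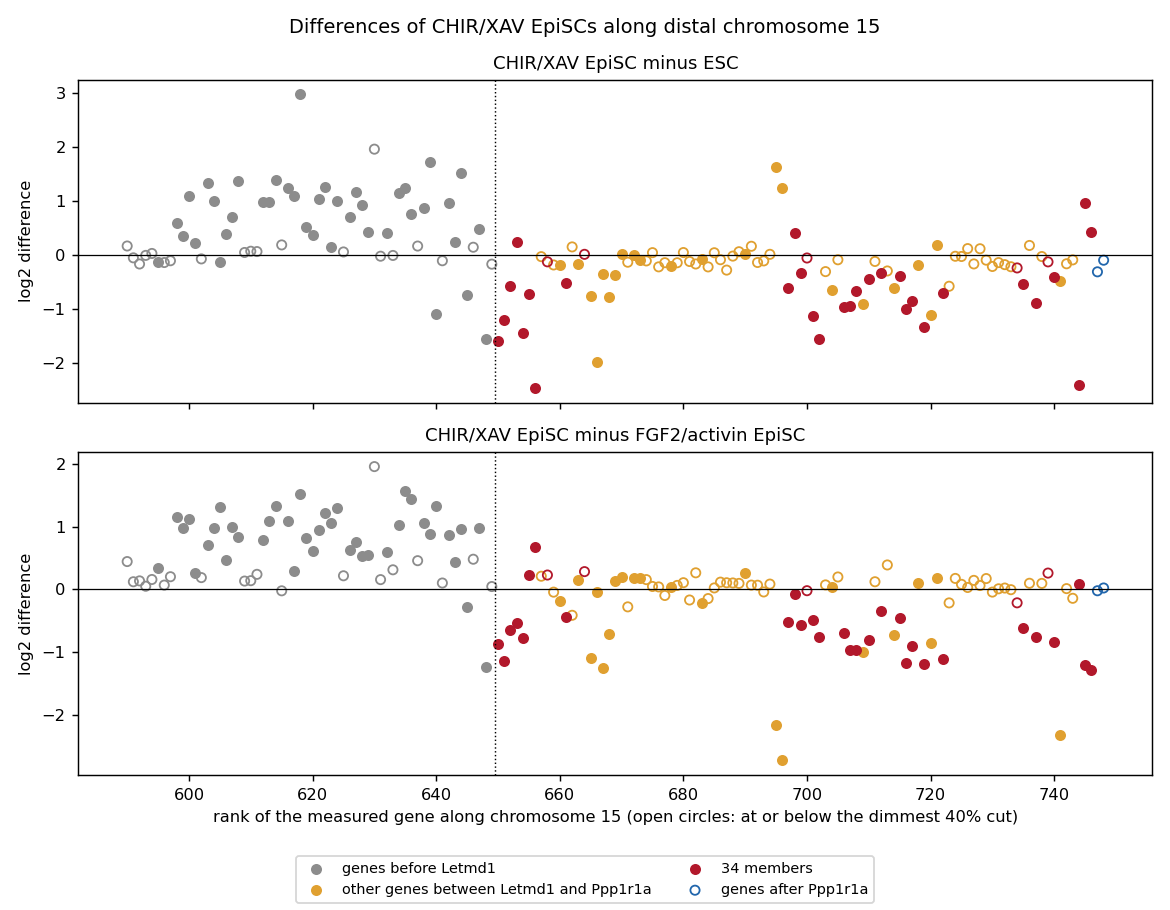
Log2 difference (vertical axis) between CHIR/XAV EpiSCs and ESCs (top) or FGF2/activin EpiSCs (bottom) for the last 159 measured genes of chromosome 15, by their rank along the chromosome (horizontal axis); red marks the 34 listed genes, orange the 63 others between Letmd1 and Ppp1r1a, grey the genes before the dotted line at Letmd1, blue the genes after, and open circles genes among the dimmest 40%. Most filled red points lie below 0 and most filled grey points above 0. The place of the red points follows from how the listed genes were chosen. Grey points up to Atf1 belong to the stretch from Amigo2 to Atf1, whose bounds were set with earlier results of these data known.

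Complexes and families to which the listed genes belong have other members encoded elsewhere, and these were tested as partner genes. Of 116 listed partners, 105 were measured, 2 of them on chromosome 15 (Rad21 and Ago2). Against ESCs, 40 were higher in CHIR/XAV (38.1%; all genes 24.7%) and 24 lower (22.9%; all genes 22.1%). Against FGF2/activin EpiSCs, 25 were higher (23.8%; all genes 20.5%) and 31 lower (29.5%; all genes 21.1%). The medians were 0.09 and -0.02, and 11 of the 105 (10.5%; all genes 8.89%) had CHIR/XAV values below the other 6. Most of the 105 were brighter than the dimmest 40% of genes, and 13.8% of all genes that bright had such values. The shares called by limma were not counted by brightness, so part of their gap from all genes may follow brightness. Between FGF2/activin EpiSCs and ESCs, 47 were higher (44.8%; all genes 27.8%) and 34 lower (32.4%; all genes 33.5%). After scaling to a common median, which shifts every CHIR/XAV to ESC difference by -0.10, the 40 higher and 24 lower became 34 and 36. Quantile normalization turned the 25 higher and 31 lower against FGF2/activin EpiSCs into 32 and 28. The shares over all genes were not counted after either scaling.

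For Pfdn5, the 5 other prefoldin subunits held 3 that rose in CHIR/XAV against both cultures and none that fell. By limma, Pfdn2 rose by 0.53 against ESCs (adjusted p = 1.41e-05) and 0.25 against FGF2/activin EpiSCs (0.00933), Pfdn6 by 0.44 (0.000241) and 0.28 (0.00819), and Pfdn4 by 0.20 (0.024) and 0.32 (0.00161). The Pfdn4 call against ESCs was lost without ESC 2, ESC 3 or CHIR/XAV 1 (adjusted p of 0.0527 to 0.0923) and after either rescaling. For Cbx5, its paralogs Cbx1 (0.41, adjusted p = 0.000315) and Cbx3 (0.35, 0.00541) rose against FGF2/activin EpiSCs. Against ESCs Cbx1 did not pass (0.16, adjusted p = 0.0744) and Cbx3 rose by 0.25 (0.0288). That Cbx3 call was lost without any 1 of 4 arrays (adjusted p of 0.0619 to 0.128) and after median centring (0.141). For Pcbp2, 4 of 7 related hnRNP and poly(C)-binding genes rose against ESCs, including Pcbp4 (0.71), Hnrnpa0 (0.63) and Pcbp3 (0.42), and none passed in either direction against FGF2/activin EpiSCs, where the 7 differences ran from -0.11 to 0.15. For Sp1, Sp4 rose against FGF2/activin EpiSCs (0.42, adjusted p = 0.00248), while Sp3 did not pass in that comparison (0.05). Against ESCs neither Sp4 (0.12) nor Sp3 (-0.16) passed, though Sp3 passed as lower after median centring (adjusted p = 0.00764) and quantile normalization (0.0381).

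For Eif4b, 2 of 5 other initiation factors rose against ESCs and none fell, with Eif4g3, a scaffold, at 0.65. Against FGF2/activin EpiSCs 1 rose, the helicase Eif4a2 (0.39), and Eif4g3 did not pass (-0.10). For Copz1, the 8 other COPI genes gave 2 higher and 1 lower against ESCs and 1 higher and 4 lower against FGF2/activin, with Arcn1 at 0.28 and -0.60. The calls of Arcn1 and Cope against ESCs were lost after median centring (adjusted p = 0.0703 and 0.107 by limma), and that of Cope also without ESC 3 (0.0694). For Espl1, 4 of 6 securin and cohesin genes rose against ESCs and 1 fell. Stag2, a cohesin subunit, rose by 1.51, Pttg1, the securin that restrains separase, by 0.61, and Rad21, the subunit that separase cuts, by 0.47. Against FGF2/activin EpiSCs 1 rose, Rad21 (0.59), and 1 fell, while Stag2 (-0.02) and Pttg1 (0.05) did not pass. Between FGF2/activin EpiSCs and ESCs 3 rose, among them Stag2 (1.53) and Pttg1 (0.56), and none fell. In that comparison Rad21 (-0.13) did not pass, though it passed as lower after either rescaling. For Aaas, its membrane-ring neighbours of the pore Ndc1 (0.49) and Pom121 (0.36) rose and Nup210 (-0.90) fell against ESCs. Against FGF2/activin EpiSCs Pom121 fell (-0.29), while Ndc1 (0.16) and Nup210 (0.16) did not pass. Between FGF2/activin EpiSCs and ESCs, Ndc1 (0.33), Pom121 (0.65) and Nup210 (-1.07) moved in the same directions as in CHIR/XAV.

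For Tarbp2, the 6 genes of microRNA loading were mixed: 1 rose and 2 fell against ESCs, and 1 rose and 3 fell against FGF2/activin EpiSCs. Ago1, an Argonaute, fell in both (-0.71 and -0.27), and Dicer1 (-0.36) fell against ESCs. For Smug1, Ung, the main uracil glycosylase, fell against ESCs (-0.56) and rose against FGF2/activin EpiSCs (0.35). For Atf7, Creb5 rose against ESCs (0.70) and fell against FGF2/activin EpiSCs (-0.97), and Atf2 fell in both (-0.20 and -0.29), its call against ESCs being lost without ESC 2 or CHIR/XAV 2 (adjusted p of 0.0606 and 0.0845). For Tfcp2, its relative Tfcp2l1, a factor of the naive state, read 11.33, 6.23 and 6.69 in ESC, CHIR/XAV and FGF2/activin and fell in both. For Nckap1l, 2 of 8 WAVE-complex genes rose and 3 fell against ESCs, Cyfip2 rising most (2.09). Against FGF2/activin EpiSCs 2 rose and 2 fell, Cyfip2 being among those that fell (-0.34). These comparisons share arrays with one another and with those of the listed genes.

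**Figure D4:**
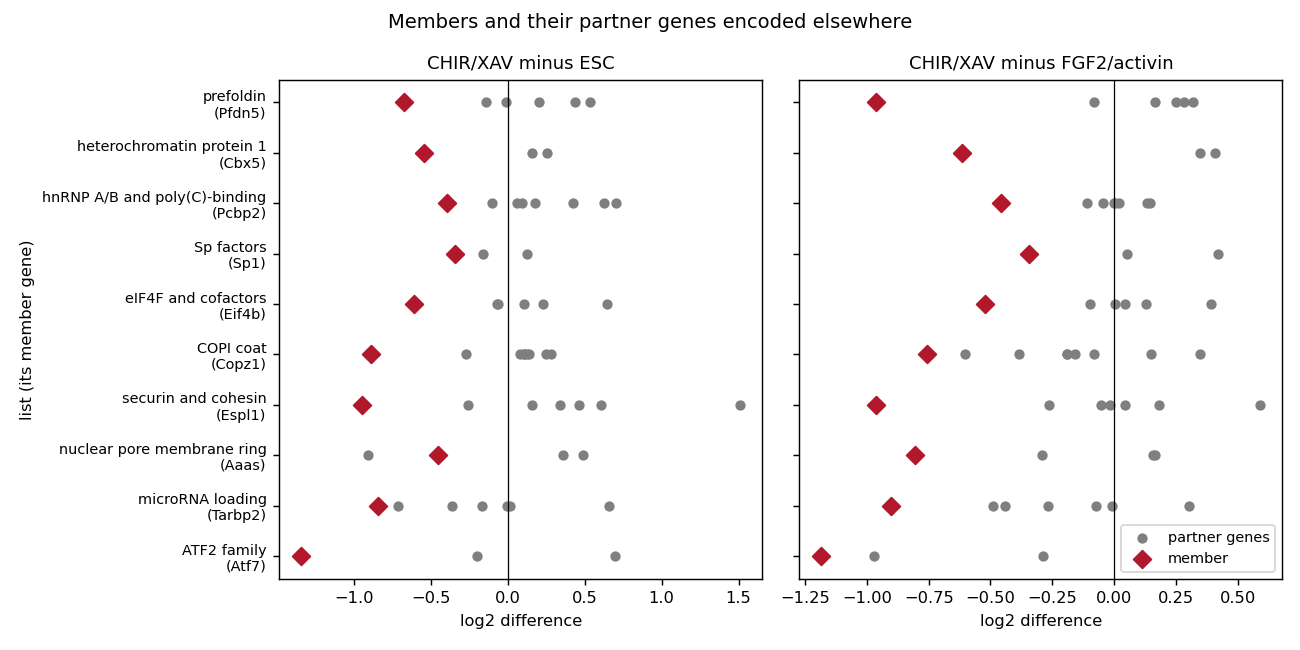
Log2 difference (horizontal axes) of CHIR/XAV EpiSCs from ESCs (left) and from FGF2/activin EpiSCs (right) for 10 listed genes (red diamonds, each chosen for low CHIR/XAV values) and the other genes of their complex or family (grey dots), 1 row per list. The place of the red diamonds follows from how they were chosen. Lists that are not plotted hold partners further below ESCs than the listed gene, among them Tfcp2l1 (-5.10, Tfcp2 -0.58), Calcoco2 (-4.97, Calcoco1 -0.71) and Cdo1 (-2.97, Csad -1.12). Others include Ung (-0.56, Smug1 -0.24), Csrnp3 (-1.29, Csrnp2 -1.21), Tns3 (-1.49, Tns2 0.40), Scn3a (-0.78, Scn8a -0.52), Galnt7 (-0.70, Galnt6 -0.13) and Tgfbr1 (-0.60, Acvrl1 0.01).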

How the data were processed

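The values are log2 expression on 9 Mouse Gene ST arrays, which the authors deposited as a matrix normalized by RMA; the submitters' processing notes name Partek for this, per the labels (versions not given in the sources used here). No scanner files or detection calls were used. Of 35399 probe sets, 21789 named 1 gene, 1621 several and 11989 none; for each of 19938 genes the brightest probe set (mean of the 9 arrays) was kept, and 19856 genes matched RefSeq (GRCm38.p6) for names and order. Groups were compared with limma 3.58.1 in R 4.3.3 (lmFit and eBayes, 3 groups sharing 1 spread, Benjamini-Hochberg over all genes, threshold 0.05). In data simulated for FGF2/activin minus ESC, 200 of the 19938 genes were changed. Of 67 genes changed by 0.5 (log2) 79.1% were recovered, and of 67 changed by 1, 100%, with 12 false calls among the unchanged genes. The real comparison called 27.8% of genes higher and 33.5% lower, a far larger share, so these rates do not carry over to it. The number of arrays, 3 per group, limits the precision. Members and lists were chosen with earlier results of these data known. Named genes were all members, the 5 measured genes before, up to 5 after, and the 6 brightest others between. At most 3 partner genes per list were added, by distance of CHIR/XAV from the mean of the other groups. The 10 unlisted genes below both cultures, the blood markers, Tfap2c, Eomes, Thy1, Calcoco2, Cdo1, Csrnp3, Tns3, Scn3a, Galnt7 and Tgfbr1 were named after their values were seen. Alternatives covered probe-set choice, a filter on the dimmest 40%, variance model, groups in the fit, scaling, array weights, a replicate block and leaving out each array.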

Additional observations from a re-analysis of the deposited data

How the results depend on the processing

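The median difference of the 34 genes against ESCs, -0.59, became -0.71 without the dimmest 40% of genes, -0.69 after median centring of the arrays and -0.66 after quantile normalization; against FGF2/activin EpiSCs, -0.63 became -0.75 without the dimmest 40% and -0.56 after quantile normalization. Leaving out 1 array at a time gave -0.61 to -0.58 and -0.66 to -0.59. The counts of the 34 genes between FGF2/activin EpiSCs and ESCs, 9 higher and 11 lower (45.0% of calls higher), ran over 7 to 10 and 9 to 11 on leaving out 1 array; median centring gave 7 and 14 (33.3%), quantile normalization gave 6 and 11 (35.3%), and both counts stayed within 1.5 times the main ones in every setting tried. Map3k12 turned from 0.18 to -0.008 (adjusted p = 0.935) in the limma fit after quantile normalization, where Zfp385a (0.116), Pfdn5 (0.235), Galnt6 (0.0521), Acvrl1 (0.0702) and Gpr84 (0.107) also lost their calls and Atf7 (0.0012), Copz1 (0.00691) and Csrnp2 (0.00407) gained calls as lower; the cause was not tested. Partner counts against ESCs, 40 higher and 24 lower (62.5% higher), became 34 and 36 (48.6%) after median centring. Without 1 array they ran over 37 to 41 and 23 to 26. Without 1 array the counts were 23 to 27 and 27 to 31 against FGF2/activin EpiSCs. Between FGF2/activin EpiSCs and ESCs they were 39 to 47 and 30 to 34. The shares over all genes were not counted again in these settings.

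Same-numbered arrays had correlated deviations of -0.07 to 0.24, so the numbers were not taken as pairs. With the replicate block, the counts of the 34 genes were still 9 and 11 and the median differences -0.59 and -0.63, and Map3k12 lost its call (adjusted p = 0.0509) while Spryd3 gained one (0.0379). The 3 arrays a group, unknown culture origin and the absence of detection calls limit these results.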
